A study of Homo sapiens and Mus musculus with 7 samples.

Results

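The genes described here are 10 members of the Notch pathway: the ligand JAG1, the receptors NOTCH1, NOTCH2 and NOTCH3, the nuclear proteins RBPJ, MAML1, MAML2 and MAML3, and the targets HES1 and HEY1. They were chosen by the HeyA8 array signals of HEY1 and MAML3, which were lower with both FAS hairpins, so the HeyA8 ratios describe the choice and carry no test. A probe set was taken for a member when its only annotated gene symbol was that member. This gave 28 of 41091 such probe sets and 10 of 19773 genes on the human arrays. On the mouse arrays it gave 18 of 34945 probe sets and 9 of 18193 genes, Maml3 having none.

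Total RNA was measured on 7 Affymetrix arrays, 1 for each of 7 groups, to set cells or tissue with less Fas (CD95, a death receptor) beside their controls. HeyA8, a human ovarian cancer cell line, carried a stable FAS knockdown by hairpin shRNA4 or by hairpin shRNA6, or the PLKO control, here taken as the empty hairpin vector and written pLKO. HepG2, a human liver cancer cell line, carried shRNA6 or the pLKO control. The livers came from a male Fas knock-out mouse and a male wild-type mouse, both C57/BL6 and 2 months old. The genotype labels call the hairpin lines knock-outs, while the descriptions call them knock-downs. The labels do not say whether a line is 1 clone or how the mouse gene was altered. FAS signal was 56.3% of the control with shRNA4 and 40.7% with shRNA6 in HeyA8, 58.1% with shRNA6 in HepG2 and 30.3% in the knockout liver. Since each group is a single array, the knockdown and knockout differences cannot be set against a spread between replicates.

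Notch receptors are membrane proteins that ligands of the Jagged and Delta families on a neighbouring cell activate. ADAM proteases and gamma-secretase then cut the receptor, and its freed intracellular part enters the nucleus. There it joins the DNA-binding protein RBPJ and a Mastermind-like (MAML) coactivator, and genes such as HES1 and HEY1, which encode repressors of transcription, are switched on. Without the receptor part, RBPJ holds these genes down with corepressors. In liver the pathway is best known for forming bile ducts, where JAG1 and NOTCH2 act together, and in endothelium it governs vessel patterning.

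HES1 carries matches to the core letters of the RBPJ site upstream of its start, and its promoter is shown for that reason. The promoter of MAML3, a member with lower signal on both HeyA8 hairpin arrays, is set beside it for comparison. Capitals mark TGGGAA. Sequences are those of RefSeq on GRCh38.p14, 250 bases ending at the base before the annotated start, 5′ to 3′ on the strand of the gene. The HES1 stretch is chr3:194135898-194136147 on the plus strand, and the MAML3 stretch is chr4:140154185-140154434 on the minus strand.
HES1: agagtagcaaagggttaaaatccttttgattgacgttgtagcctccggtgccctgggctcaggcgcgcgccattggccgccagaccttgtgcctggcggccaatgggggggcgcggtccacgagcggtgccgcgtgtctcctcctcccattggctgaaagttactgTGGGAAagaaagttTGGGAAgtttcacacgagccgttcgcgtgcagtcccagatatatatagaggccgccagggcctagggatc
MAML3: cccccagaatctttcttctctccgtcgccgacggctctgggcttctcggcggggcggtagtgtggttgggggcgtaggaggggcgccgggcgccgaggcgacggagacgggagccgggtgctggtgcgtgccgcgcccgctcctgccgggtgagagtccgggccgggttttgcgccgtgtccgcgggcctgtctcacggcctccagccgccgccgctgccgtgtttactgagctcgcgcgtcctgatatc
In HES1 the matches began 84 and 70 bases before the start, both on the strand of the gene, with 8 bases between them. TGGGAA was searched on both strands in windows of 300 bases, from 250 before to 50 after each start. Of 35116 such windows 24.0% held it at least once, 3.80% at least 2 times, and 1.21% at least 2 times on the gene strand. RefSeq windows were found for 9 of the 10 members, 13 windows in all, and not for HEY1. Besides HES1, 1 of the 5 RBPJ windows held 2 matches, 1 on each strand, and no other member window held any. CACGTG, letters bound by HES and HEY family proteins in some settings, reads the same on both strands and stood in none of the 13 windows, against 7.26% of all windows. A match is a string of letters and shows no binding.

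The arrays had nearly equal 2% trimmed mean signals (500.1 on the human arrays) and medians of 58.0 to 63.5 (human) and 75.4 to 80.1 (mouse). Signals are MAS5 values in arbitrary linear units, and signals of different probe sets are not comparable with each other. A log2 ratio is that of signal plus 12.6 (human) or 20.5 (mouse), which shrinks ratios of dim genes. Genes entered a comparison (kept genes) if their signal exceeded the array median on at least 1 of its arrays. Each gene is given by its brightest probe set other than those marked _x_at, which can cross-hybridise. Hepatocyte markers marked the liver samples: 9 of 9 were above the array median on each HepG2 array and 8 of 8 on each liver array, against 1 or 2 of 9 on the HeyA8 arrays. Among ovarian and epithelial markers, HeyA8 had PAX8 signals between 2860 and 3047 and WT1 between 830 and 1033, while MUC16 (at most 4.66) and CDH1 (at most 13.4) were far below the median. This list did not set the lines apart. On each HeyA8 array 6 of 8 were above the median, and on the HepG2 arrays 6 (shRNA6) and 7 (pLKO). Of the 7 kept between the lines 3 were higher in HeyA8 and 4 lower. PAX8 read 593 to 604 and WT1 204 to 216 in HepG2, and EPCAM 10621 to 11281, against 281 to 619 in HeyA8.

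In HeyA8 cells HEY1 and MAML3 were the members furthest below the control with both hairpins. With shRNA4, 2 of the 9 kept members were at least 2-fold below the control (HEY1 and MAML3) and none was 2-fold above it, beside 2.38% of the 12175 kept genes lower and 2.37% higher. With shRNA6, 3 of 9 were at least 2-fold lower (HEY1, MAML3 and HES1) and none higher, beside 2.21% and 2.02% of 12152 genes. HEY1 and MAML3 were 2-fold lower with both hairpins, as were 0.715% of 11754 genes. This contrast chose the members, so these shares describe the choice. The median log2 ratio of the 9 was -0.38 with shRNA4 and -0.48 with shRNA6, beside 0.03 and 0.01 over all kept genes. Of the 9, 7 were below 0 with shRNA4 and 9 with shRNA6, where 46.6% and 48.8% of all kept genes were. Both hairpins share the control array.

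HEY1, the Notch-induced repressor, had signals of 821 with shRNA4 and 899 with shRNA6, against 2139 in the pLKO control. The hairpin arrays lay close together, 0.13 apart on the log2 scale, and far below the control. The log2 ratios were -1.37 and -1.24, that is 38.4% and 42.0% of the control signal. Its other probe set read 434 and 536 against 1362, log2 ratios of -1.62 and -1.32.

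MAML3, a coactivator that binds the Notch and RBPJ complex, had signals of 197 with shRNA4 and 184 with shRNA6, against 422 in the control. The log2 ratios were -1.05 and -1.14, and the hairpin arrays differed by 0.09. The other MAML3 probe sets were below the median on every human array, so 1 probe set carries the value. With the pseudocount at the table median the ratios were -0.90 and -0.98, no longer 2-fold.

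HES1, the other repressor, read 174 with shRNA4 and 150 with shRNA6, against 317 in the control, log2 ratios of -0.82 and -1.02. Its second kept probe set did not show this, with 187 and 162 against 182 and log2 ratios of 0.04 and -0.16. Its remaining probe set read at most 5.40 on all human arrays, far under the median. The HES1 difference in HeyA8 therefore depends on the probe set. The mean over its 2 kept probe sets was -0.39 and -0.59, and -0.29 and -0.37 with the dim probe set included.

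Among the receptors, NOTCH2 had signals of 4153 with shRNA4 and 4927 with shRNA6, against 6160 in the control. These are log2 ratios of -0.57 and -0.32. The remaining NOTCH2 probe sets ran from -0.85 to -0.35 and from -0.44 to -0.17, all below 0. NOTCH2 shares near-identical sequence with the NOTCH2NL genes, so part of its signal may come from them. NOTCH1 was nearly level at 421 and 413 against 441, log2 ratios of -0.07 and -0.09. NOTCH3 was under the array median on every human array, at 52.8 and 44.3 against 54.4, and was left out of the counts.

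JAG1, the ligand, was the member on which the hairpins disagreed. Its signal was 387 with shRNA4 and 158 with shRNA6, against 275 in the control, so the control lay between them, at log2 ratios of 0.48 and -0.76. The direct difference between the hairpin arrays was 1.23 on the log2 scale, where 5.01% of 12242 kept genes differed at least 2-fold either way and the median absolute difference was 0.19. Each of the other 5 JAG1 probe sets was also higher with shRNA4 than with shRNA6, by 0.10 to 1.02, but of these only 1 was above the median in HeyA8. With 1 array per hairpin this difference was not tested.

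In the nuclear complex, RBPJ had signals of 5038 with shRNA4 and 5331 with shRNA6, against 6565 in the control, log2 ratios of -0.38 and -0.30, with all 3 probe sets below 0. MAML2 was at 1113 and 1000 against 1398, or -0.33 and -0.48 as log2 ratios, and its other probe set gave -0.34 and -0.35. MAML1 was at 1775 and 1585 against 1642, log2 ratios of 0.11 and -0.05. The 3 coactivators thus had different ratios with either hairpin.

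**Figure D1:**
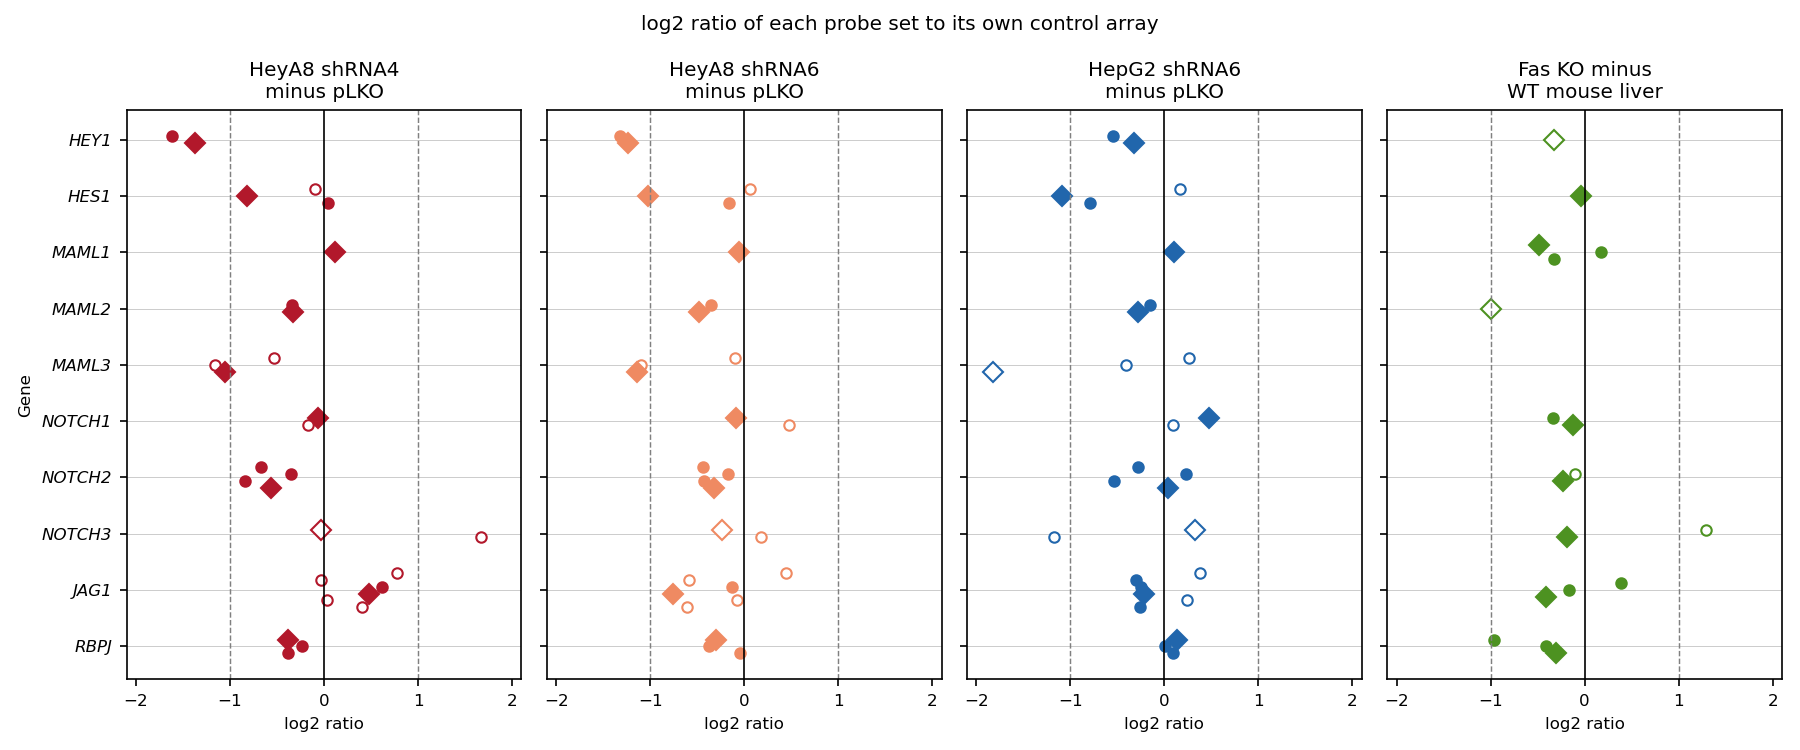
log2 ratio to the own control (x axis) of every probe set of the 10 genes (y axis) in the 4 comparisons of single arrays. Diamonds are the brightest probe set of a gene, circles its others, open symbols probe sets under the array median on both compared arrays, and dashed lines 2-fold; HEY1 diamonds are at -1.37, -1.24 and -0.32 in the human panels.

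HepG2 cells gave a comparison that did not choose the members. Of the 8 kept members 1 was at least 2-fold lower with shRNA6 (HES1) and none higher, beside 2.56% and 2.65% of 12167 kept genes. The median of the 8 was -0.09, beside -0.01 over all kept genes, and 4 were below 0, where 51.7% of all genes were. As a set, the members were thus close to the other genes.

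HES1 read 634 with shRNA6, against 1363 in the HepG2 control, a log2 ratio of -1.09, or 46.5% of the control. Its second kept probe set was also lower, at 368 against 644 and a log2 ratio of -0.79. Unlike in HeyA8, both kept probe sets of HES1 lay well below 0 here. HEY1 was at 219 against 278, a log2 ratio of -0.32, and 123 against 185 by its other probe set, a log2 ratio of -0.54. Of the other target genes listed for the pathway, NRARP, a Notch-induced inhibitor of the pathway, was at 326 against 447 (-0.44) and HES4 at 433 against 599 (-0.46). DTX1, another listed target, was higher at 84.8 against 57.3 (0.48), kept through the shRNA6 array alone, while SOX9 (-0.07) and HES6 (0.05) were nearly level.

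The other kept members in HepG2 differed less than 2-fold from the control. JAG1 was at 7396 with shRNA6 against 8578 (-0.21), and its 3 other kept probe sets lay between -0.31 and -0.25. NOTCH1 was at 169 against 118 (0.48), resting on 1 kept probe set. NOTCH2 was at 872 against 847 (0.04), with its other probe sets between -0.54 and 0.23 and a sign that turned when arrays were scaled to equal medians. RBPJ was at 1551 against 1414 (0.13), MAML1 at 1529 against 1428 (0.10) and MAML2 at 986 against 1200 (-0.28). The MAML1 sign also turned with equal medians, which moved the median of all genes by -0.11. MAML3 was under the array median on both HepG2 arrays, at 1.67 against 37.6, and NOTCH3 likewise, at 27.3 against 19.3. Neither was counted.

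The only comparison with more than 1 array on each side was that of the lines, HeyA8 (3 arrays) against HepG2 (2 arrays), fitted with a knockdown term over all 13936 kept genes by limma. The spread in this fit is that between hairpins and between knockdown effects, not between replicate cultures, so its p-values measure only that spread, which may be technical. HEY1 and MAML3, whose HeyA8 signals chose the members, are given as values with no p. Of the other 7 kept members 3 were higher in HeyA8 and 2 lower at an adjusted p under 0.05. The lines differ in most genes, with 28% of all kept genes higher and 30% lower, so the 5 of 7 stands beside 58% and is not read as a feature of the pathway. At an unadjusted p under 0.05 the count was again 5, beside 62.2% of all genes. The individual levels are what the comparison gives.

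JAG1, the ligand, differed most among the members. It read 158 to 387 on the HeyA8 arrays, against 7396 to 8578 on the HepG2 arrays. The fitted log2 difference, HeyA8 minus HepG2, was -4.86 ± 0.31 (SE, 5 arrays, adjusted p = 5.29e-06 by limma), 29.0-fold lower in HeyA8. HES1 was lower in HeyA8 too, at 150 to 317 against 634 to 1363, a log2 difference of -1.97 ± 0.17 (SE, adjusted p = 3.13e-05 by limma). HepG2 thus had the higher level of the ligand and of HES1.

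HEY1 lay the other way. It read 821 to 2139 in HeyA8, against 219 to 278 in HepG2, a fitted log2 difference of 2.33 ± 0.22 (SE, 5 arrays). The lowest HEY1 level of HeyA8, with shRNA4, stayed above the highest of HepG2, its control. The order of HEY1 levels over the human arrays was HepG2 shRNA6, HepG2 control, HeyA8 shRNA4, HeyA8 shRNA6 and HeyA8 control. Neighbours within a line and the hairpin arrays have no spread of their own by which to tell them apart.

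NOTCH2 was 5.92-fold higher in HeyA8 (2.57 ± 0.14 SE, adjusted p = 2.16e-06 by limma), at 4153 to 6160 against 847 to 872. RBPJ was 3.82-fold higher (1.93 ± 0.12 SE, adjusted p = 5.27e-06 by limma), at 5038 to 6565 against 1414 to 1551. NOTCH1 was 2.78-fold higher (1.48 ± 0.21 SE, adjusted p = 0.000483 by limma), at 413 to 441 against 118 to 169. For each of these receptors and for RBPJ, every HeyA8 array was above both HepG2 arrays. The lines did not overlap, in either direction, for 6 of the 7 kept members besides HEY1 and MAML3 (all but MAML2) and for 73.3% of all kept genes.

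MAML3 read 184 to 422 in HeyA8, against 1.67 and 37.6 in HepG2, a fitted log2 difference of 3.53 ± 0.33 (SE, 5 arrays). It was kept through the HeyA8 arrays alone and both HepG2 values are under the median, so its size is uncertain. It was 2.14 with the pseudocount at the table median, 4.32 with it at the 10th percentile, and 1.30 with the mean over all probe sets. MAML1 (0.16 ± 0.11 SE, adjusted p = 0.252) and MAML2 (0.15 ± 0.12 SE, adjusted p = 0.329) did not pass the test by limma. Their signals were 1585 to 1775 against 1428 to 1529 for MAML1 and 1000 to 1398 against 986 to 1200 for MAML2.

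**Figure D2:**
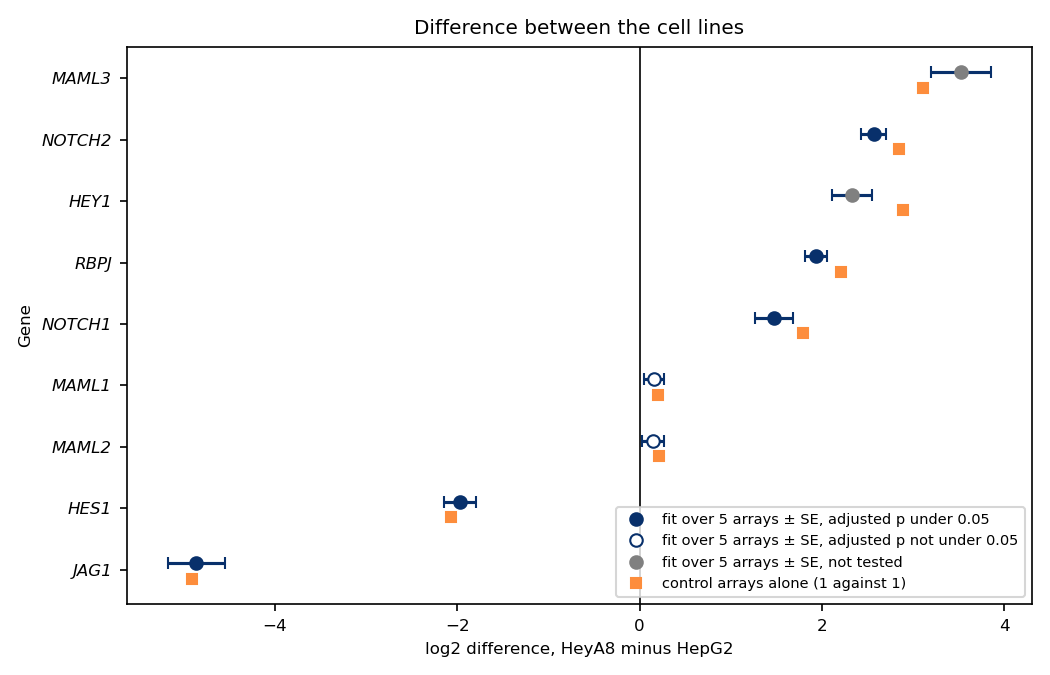
log2 difference, HeyA8 minus HepG2, of the 9 kept genes (x axis), as fitted by limma over 5 arrays (circles, bars are the SE, filled where the adjusted p was under 0.05, open where it was not, grey for HEY1 and MAML3, which were not tested) and for the control arrays alone (squares). MAML3, NOTCH2, HEY1, RBPJ and NOTCH1 lie above 0, as do MAML1 and MAML2, at only 0.16 and 0.15. HES1 and JAG1 lie below 0, at -1.97 and -4.86.

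In mouse liver the Notch genes were slightly lower in the knockout, none by 2-fold. Of 9 genes with a probe set 7 were kept, and all 7 were below 0, with a median of -0.23 beside -0.02 over all kept genes, of which 52.7% were below 0. At least 2-fold lower were 2.57% and at least 2-fold higher 1.77% of 12047 kept genes. With quantile normalization or equal medians 6 of 7 were below 0, Hes1 then being at 0.03 and 0.04. With the mean over all probe sets it was also 6 of 7, Notch3 then being at 0.55. A lower signal in whole liver can mean fewer cells of a type or less RNA per cell, which cannot be told apart in bulk samples.

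The ligand Jag1 read 245 in the knockout, against 332 in the wild-type liver (-0.41), but its other probe sets gave -0.17 and 0.39. Notch2 read 1041 against 1225 (-0.23) and Notch1 390 against 428 (-0.13, with -0.34 by its other probe set). Notch3 read 123 against 143 (-0.19), while its other probe set, under the median on both arrays, read 53.3 against 9.71. Rbpj was lower by all 3 probe sets, at 547 against 682 (-0.31), with -0.97 and -0.41 by the others. Maml1 read 527 against 745 (-0.48), with its other probe sets at -0.32 and 0.17. Hes1 was level at 320 against 329 (-0.04). Hey1 (50.9 against 68.6) and Maml2 (3.55 against 27.6) were under the array median and not counted.

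Markers of liver cell types are given beside these values, from the same 2 arrays. Endothelial, macrophage and stellate cell markers were mostly slightly below 0, hepatocyte markers were level and cholangiocyte markers diverged. All 8 endothelial markers were below 0, where 52.7% of all kept genes were, with a median of -0.20. Their summed signal was 5185 in the knockout against 6247 in the wild-type liver. Under equal-median scaling, ratios between these 2 arrays rose by 0.09 at the median. Kdr (-0.09), Tek (-0.08) and Erg (-0.03) were about this size or smaller. The count of 8 may thus depend on the scaling, which was not tested for the markers. Macrophage markers summed to 10166 against 13273, with 4 of 5 below 0 and a median of -0.31. Stellate cell and fibroblast markers summed to 7230 against 8605, with 5 of 6 below 0 and a median of -0.21. Hepatocyte markers summed to 249283 against 245017, with a median of 0.01. Of the cholangiocyte markers 3 of 5 were kept, and they diverged. Sox9 read 10.3 against 147 and Epcam 53.5 against 198, while Krt7 read 76.3 against 9.55. Each of these was above the median on 1 of the 2 arrays. The part of cell composition in the Notch values was not tested.

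The rest of the pathway was described by 6 lists. ADAM proteases and gamma-secretase subunits had medians near 0, at 0.08 (HeyA8, shRNA4), 0.02 (HeyA8, shRNA6), 0.01 (HepG2) and 0.12 (liver). None of the 7, 7, 6 and 7 kept genes of this list passed 2-fold. NCSTN, the gamma-secretase subunit nicastrin, was at -0.43 and -0.53 in HeyA8. In mouse liver Aph1b read 268 in the knockout against 145 (0.80) and Psen2 9494 against 6687 (0.50), while 3 of the 7 were below 0. Nuclear corepressors and coactivators had medians of -0.02, -0.11, -0.07 and -0.08, again with none past 2-fold. SNW1, a coregulator that joins Notch complexes and also the spliceosome, was at -0.28 and -0.57 in HeyA8 and -0.50 in HepG2. In mouse liver Spen, a corepressor partner of RBPJ, was at 0.56.

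Endocytosis and turnover genes had HeyA8 medians of 0.10 and -0.13, a HepG2 median of 0.04 and a liver median of 0.01. MIB2, a ubiquitin ligase that acts on ligands, was at 163 and 144 against 78.7 in HeyA8 (0.94 and 0.78). Mouse Numbl, related to the Notch inhibitor Numb, was the 1 of 11 kept there that was at least 2-fold higher, at 91.2 against 22.4, where the wild-type signal was under the median. Glycosylation genes had HeyA8 medians of 0.23 and 0.11, a HepG2 median of -0.04 and a liver median of -0.16. The mouse fringe genes, whose products alter the ligand preference of Notch, diverged. Lfng read 6.41 against 98.0 and Mfng 60.1 against 166, both at least 2-fold lower in the knockout, while Rfng read 553 against 622. Both Lfng and Mfng were under the array median in the knockout and kept through the wild-type array.

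The other target genes were few above the median: 5, 5, 7 and 6 of the 12 listed were kept, with medians of -0.02, -0.22, -0.25 and -0.03. NRARP was below 0 in all 4 comparisons. In HeyA8 it read 96.3 with shRNA4 and 76.5 with shRNA6, against 132 in the control (-0.41 and -0.70). In mouse liver Nrarp read 134 in the knockout against 255 in the wild type (-0.83). SOX9, a transcription factor and Notch target of bile duct cells, was at -0.02 with shRNA4 and -0.42 with shRNA6 in HeyA8, and at -0.07 in HepG2. Mouse Sox9, with the signals given above, was the 1 listed target at least 2-fold lower in the knockout, and HES7 the 1 in HepG2, at 6.67 against 85.3. Both were kept through the control array alone. Of the 8 remaining ligands and receptors 3, 3, 4 and 5 were kept, with medians of 0.45, 0.39, -0.53 and 0.11. DLK2 was 2-fold higher in HeyA8 at 108 and 61.5 against 18.3, kept through the hairpin arrays alone. JAG2 was 2-fold lower in HepG2 at 27.6 against 74.3, kept through the control array alone.

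Between the lines 4 of the 9 kept target genes were lower in HeyA8 and 2 higher at an adjusted p under 0.05 by limma, beside the 30% and 28% of all kept genes. HES4, HES6 and HES2 among these 6 were above the median in 1 line alone, so their calls follow from the filter. The others, above the median in both lines, were SOX9, NRARP and CCND1. SOX9 read 483 to 653 in HeyA8, against 6744 to 7077 in HepG2 (-3.50 ± 0.14 SE, adjusted p = 5.12e-07 by limma). NRARP read 76.5 to 132 against 326 to 447 (-1.73 ± 0.24 SE, adjusted p = 0.000384 by limma). CCND1, the cell cycle gene cyclin D1, was higher in HeyA8, at 6170 to 8281 against 3886 to 4608 (0.70 ± 0.15 SE, adjusted p = 0.00411 by limma). All 4 kept glycosylation genes were lower in HeyA8 at an adjusted p under 0.05 by limma, beside the 30% of all kept genes. LFNG passed the filter through HepG2 alone, so its call follows from the filter. POFUT1 differed little (-0.48 ± 0.16 SE, adjusted p = 0.0308 by limma). RFNG read 154 to 184 against 1122 to 1129 (-2.65 ± 0.17 SE, adjusted p = 5.30e-06 by limma). DLK1, a Delta-like membrane protein, and DNER, a Delta/Notch-like receptor, were each above the median in 1 line alone and are given without a test. DLK1 read 2.98 to 25.5 in HeyA8, against 9326 to 14418 in HepG2. DNER read 648 to 1168 in HeyA8, against 39.3 to 49.7 in HepG2.

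**Figure D3:**
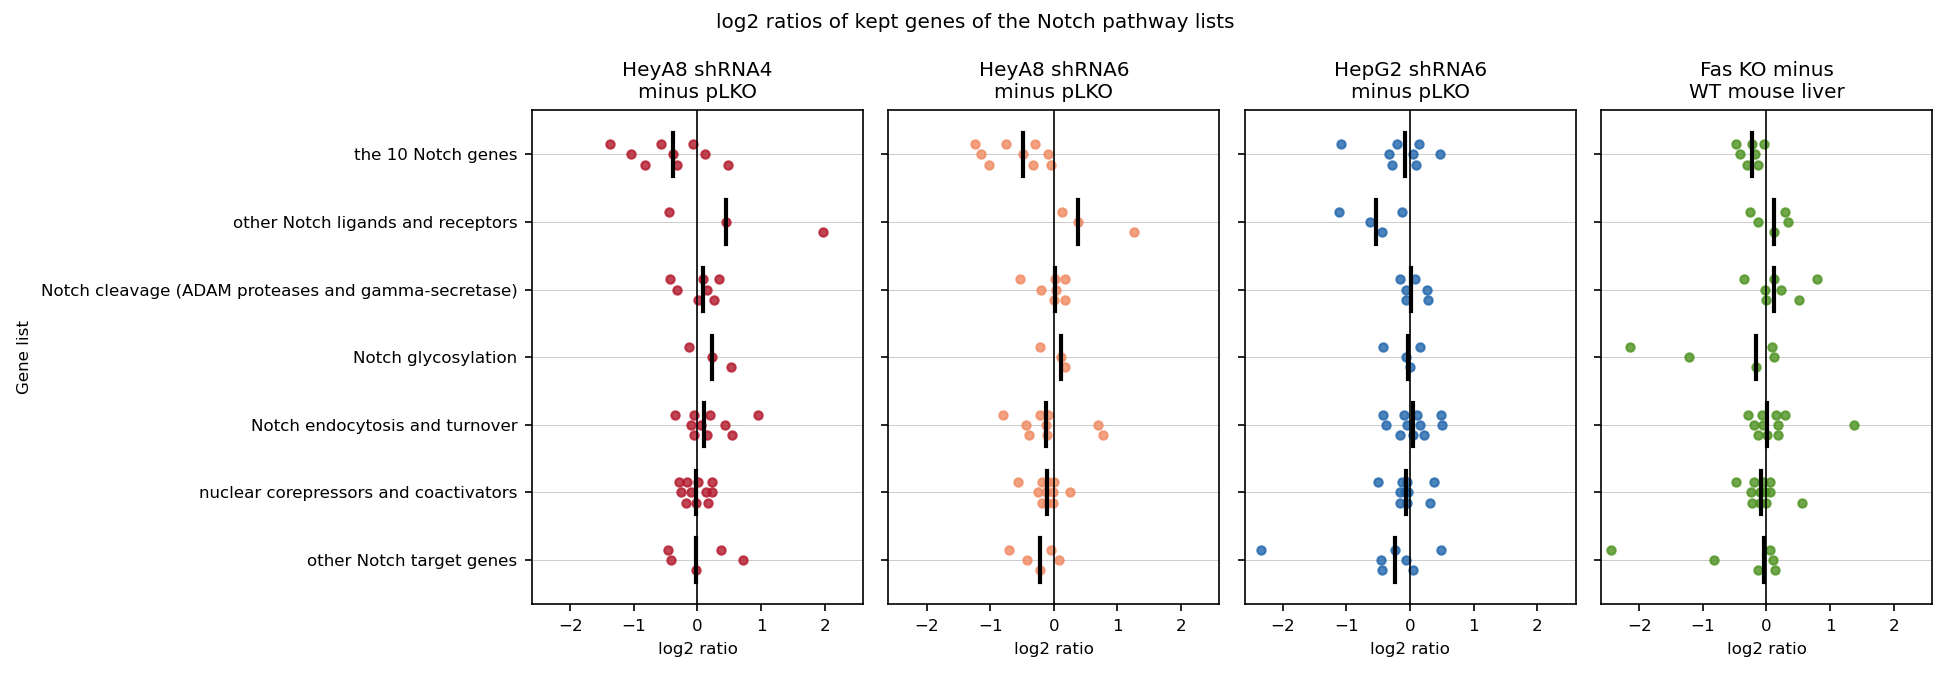
log2 ratios (x axis) of the kept genes of the 10 Notch genes and 6 further pathway lists (y axis) in the 4 comparisons, each point a gene and each black bar the list median. The medians of the 10 Notch genes are -0.38 (shRNA4), -0.48 (shRNA6), -0.09 (HepG2) and -0.23 (mouse).

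Genes with the pattern most like HEY1 over the 5 human arrays were sought among 8928 bright genes, those above the 75th percentile of at least 1 array. Likeness was the root mean square difference of log2 levels, each centred on its own mean. Nearest were MLPH, a melanosome transport adaptor (0.24), SPRY2, a feedback inhibitor of receptor tyrosine kinase signalling (0.26), the repressor KLF12 (0.28), the stress-responsive gene NDRG1 (0.33) and the complement inhibitor CD55 (0.34). MLPH, for example, read 441 and 714 against 1135 in HeyA8 and 113 against 131 in HepG2. For MAML3 the nearest were the protease gene ADAM19 (0.29), LINC00623 (0.38), OSCAR (0.40), ECHDC3 (0.41) and ITGB1-DT (0.41). ADAM19 read 748 and 725 against 1006 in HeyA8 and 24.4 against 112 in HepG2. Most of each pattern is the difference between the lines, which a large share of genes have.

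**Figure D4:**
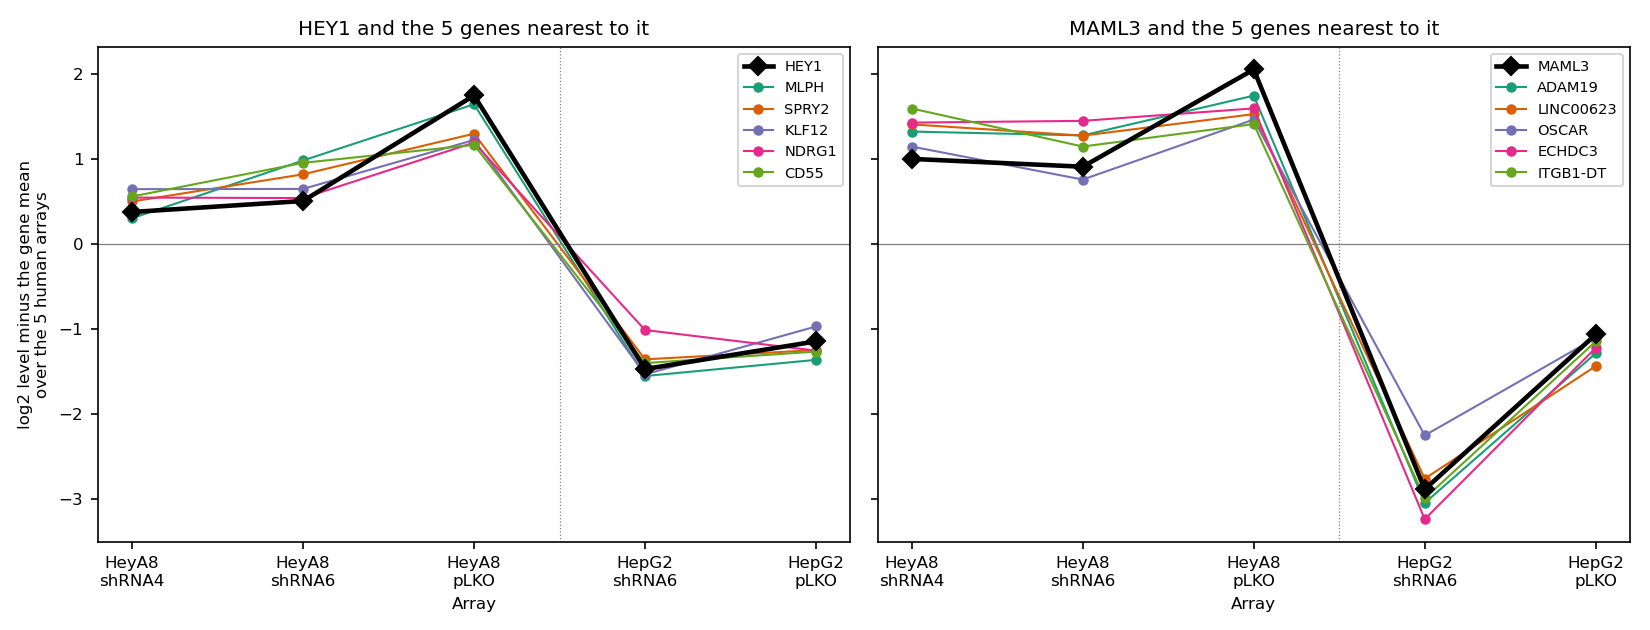
log2 level minus the mean of the gene over the 5 human arrays (y axis) on each array (x axis), for HEY1 (left, black) and MAML3 (right, black) and the 5 bright genes nearest to each (colours). Each gene is higher on the 3 HeyA8 arrays than on the 2 HepG2 arrays, and HEY1 and MAML3 are highest in the HeyA8 control.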

How the data were processed

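Total RNA of 7 samples was hybridised to Affymetrix arrays, 5 human and 2 mouse. The authors deposited linear intensity values per probe set. The submitters' processing notes name MAS5, without its version or settings. Their 2% trimmed mean of 500.1 shows that each human array was scaled as a whole.

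The 10 members, the lists and the rules were chosen with earlier results of these data known. Control probe sets (62 human, 64 mouse) were left out. Symbols came from the platform annotation, where human probe sets had 1 symbol (41091), several (1801) or none (11721), and mouse ones 34945, 932 and 9160. Of the human ones 41037 matched a RefSeq gene identifier. Each gene was given by its brightest probe set (_x_at only where there was no other). Differences are on log2(signal + c), with c the 25th percentile of a table (12.6 human, 20.5 mouse). Single arrays were compared by size, at least 2-fold.

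limma 3.58.1 in R 4.3.3 fitted cell line and knockdown over the 5 human arrays, with a trended prior, 2 residual and 5.78 prior degrees of freedom and Benjamini-Hochberg adjustment. The fit was first tested on simulated data, with a spread taken from the difference between the HeyA8 hairpin arrays and no knockdown effect. It recovered 56% of changes of log2 size 1, 78% of size 2, 92% of size 3 and 90% of size 4. There were 7 false calls over 13936 genes. A change of 2-fold could thus be missed. Named genes were the 10 members, FAS, at most 4 per list with the largest ratio, and the 5 genes nearest HEY1 and MAML3. NRARP and CCND1 between the lines, SOX9 and HES6 in HepG2 and the marker genes fall outside this rule and were named after their values were seen. All other values were computed in Python 3.11.15 with pandas 2.3.3.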

Additional observations from a re-analysis of the deposited data

Results flagged for a closer look

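NOTCH1, NOTCH2 and RBPJ were below 0 with both HeyA8 hairpins and above 0 in HepG2 with shRNA6. The difference between the cell lines in these ratios was not tested, and the HeyA8 ratios share 1 control array. For NOTCH1 the HepG2 ratio minus the mean of the HeyA8 ratios was 0.55, from 0.48 against -0.07 and -0.09, and with the mean over all probe sets the HeyA8 shRNA6 ratio turned to 0.19. For NOTCH2 the same difference was 0.49, from 0.04 against -0.57 and -0.32. Its HepG2 sign turned with arrays scaled to equal medians (-0.07) and with the mean over all probe sets (-0.14). For RBPJ it was 0.47, from 0.13 against -0.38 and -0.30, with all 3 probe sets above 0 in HepG2 and below 0 in HeyA8.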

How the results depend on the processing

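The count of members at least 2-fold away from their control changed with the processing in the human comparisons. With shRNA4 in HeyA8 it was 2 and with shRNA6 it was 3. Each became 1 with the pseudocount at the table median and with the mean over all probe sets of a gene, where HEY1 stayed past 2-fold. The shRNA6 count was 2 with quantile normalization, with equal medians or with a filter at the 75th percentile. HES1 was then at -0.96 with quantile normalization and -0.95 with equal medians. At a threshold of 1.5-fold the counts were 3 with shRNA4 and 4 with shRNA6. In HepG2 the count of 1 became 0 with the mean over all probe sets and 2 with no filter on low values, which adds MAML3. That mean put HES1 at -0.57 with its dim probe set included, and its 2 kept probe sets alone had a mean of -0.94. In mouse liver it was 0 under all 8 alternatives. Between the lines HEY1 and MAML3, which chose the members, were not counted. Fits leaving out a HepG2 array were not counted either, since 1 array of that line remains. Under every other alternative HES1, JAG1, NOTCH1, NOTCH2 and RBPJ had an adjusted p under 0.05 by limma, and MAML1 and MAML2 did not. In the main fit 58% of all kept genes did, so these calls are not read as a feature of the pathway. As sizes alone, the log2 difference of HES1 ran from -2.13 to -1.15 and that of NOTCH1 from 0.85 to 1.79 over 15 alternatives. These 15 include the fits leaving out a HepG2 array and the control arrays alone. With the control arrays alone, an alternative chosen after seeing the data, the difference was 2.89 for HEY1, -2.06 for HES1 and -4.90 for JAG1. No paired analysis was possible because each group has 1 array and the labels give no shared replicate numbers. Signals near or under the array medians limit MAML3, NOTCH3 and mouse Hey1 and Maml2.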

Other observations

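Several genes of the family stayed under the array median on all human arrays and entered no comparison. The endothelial Notch ligand DLL4 had signals between 39.8 and 51.2 on the HeyA8 arrays and at 31.0 and 40.1 on the HepG2 arrays. The ligand DLL1 was at most 18.2 and DLL3 at most 6.62. HEY2, a relative of HEY1, was at most 42.5 and HEYL at most 39.8 on the human arrays. The second NOTCH3 probe set was at most 49.7. No detection calls were used, so whether these signals stand above background was not tested.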
